A study of Ambystoma mexicanum with 5 samples.

Results

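The translation factors and aminoacyl-tRNA synthetases of the axolotl (Ambystoma mexicanum) kidney are described here as a group of 124 gene models of the 100758 in the deposited count table. Gene models were taken by name: initiation factors (EIF followed by a digit, without EIF2AK2), elongation factors (EEF followed by a digit), cytosolic synthetases (1 letter and ARS or ARS1, with EPRS1), mitochondrial synthetases (names ending in ARS2) and the mitochondrial factors TUFM, GFM and MTIF. The name rule matched 153 rows, and the 29 with fewer than 10 counts over the 5 libraries were left out, 18 of them without a count. The least counted members had 15 counts (a second EIF2AK4 model) and 16 counts (a second EIF2B2 model), and the most counted row left out was a second EEF2 model with 9. The members carry 102 gene symbols, and 14 of these symbols have several models, 36 in all. By class there were 62 initiation factors, 22 elongation factors, 17 cytosolic synthetases, 16 mitochondrial synthetases and 7 mitochondrial translation factors.

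The study profiled total RNA from kidneys of 5 axolotls, 3 untreated controls (1, 2 and 3) and 2 animals given gentamicin (labelled 1 and 3). Gentamicin is an aminoglycoside antibiotic that acts on the bacterial ribosome and is known in mammals to injure the proximal tubule. The design text calls the treated group one of gentamicin-induced injury, and the labels state no dose, route, interval, strain, age or sex. The titles of the treated samples begin with Gen14, and what the number stands for is not stated. The question the design poses is how expression in the injured kidney differs from that in the untreated kidney.

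Synthetases attach each amino acid to its transfer RNA. Initiation factors then bring the small ribosomal subunit, the initiator transfer RNA and the capped messenger RNA together, and elongation factors deliver charged transfer RNAs and move the ribosome along the message. Mitochondria translate their own genome with a separate set of nuclear-encoded synthetases and factors. Translation is regulated chiefly at initiation, through phosphorylation of eIF2 by stress-sensing kinases and through EIF4EBP proteins, which bind the cap-binding protein EIF4E when they are not phosphorylated by MTOR. Proximal tubule cells are rich in mitochondria, which power reabsorption.

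Libraries held 13674201 to 16404879 counts, so 3 counts, the most that a zero leaves possible, correspond to 0.183 to 0.219 CPM (counts relative to the library total) before scaling. The first principal component, with 69.3% of the variance, separated the 2 groups. In the test described below, 13.3% of all tested genes were called higher and 13.4% lower, the shares to set beside the marker counts. Kidney markers were present in the controls: the 10 listed proximal tubule genes, such as LRP2 and CUBN, summed to 9928 to 11982 CPM. In both gentamicin kidneys that sum was 627 CPM, and all 14 tested proximal tubule models were lower. Distal nephron markers were lower in 5 of 6 tested models, with sums of 4493 to 5800 CPM in controls and 2641 and 3041 CPM after gentamicin. Podocyte markers were called in 0 of 4 models by edgeR (1 at an unadjusted p under 0.05, 0 by DESeq2 and 1 by limma-voom), with sums of 387 to 424 CPM and then 399 and 362 CPM. Macrophage markers were higher in 9 of 11 models (138 to 205 CPM, then 1905 and 1596 CPM), and dividing-cell markers in 7 of 8 (405 to 514 CPM, then 787 and 876 CPM). Of the smaller lists, neutrophil models were higher in 2 of 3 (16.9 to 63.6 CPM, then 182 and 128 CPM) and lymphoid models in 4 of 5 (16.4 to 20.6 CPM, then 49.5 and 37.8 CPM). Erythroid models were higher in 3 of 4 and lower in 1 (229 to 351 CPM, then 368 and 373 CPM), and the 1 tested skeletal muscle model was not called. These shifts moved with the treatment, their part in the results on translation genes was not tested, and in whole-kidney RNA fewer cells of a type and less RNA per cell cannot be told apart.

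Of the 124 members, 117 passed the filter on low counts, and the 7 that did not had at most 29 counts each. Levels below are CPM scaled by the trimmed mean of M-values (TMM), differences are log2 fold changes of gentamicin over control with their standard error (SE), and a gene is called where its Benjamini-Hochberg adjusted p over all 22006 tested genes was under 0.05 in edgeR's quasi-likelihood test. After gentamicin, 10 members were called higher (8.55%, against 13.3% of all tested genes) and 18 lower (15.4%, against 13.4%). The median log2 fold change of the tested members was -0.13, and that of all tested genes was 0.01. Values of the 2 groups did not overlap in 24 members that were higher (28.6% of all genes) and 51 that were lower (26.7%). Changes were small: of the called members, IARS1 alone rose at least 2-fold, a size that 7.43% of all genes reached, and EEF1A2 and CARS2 alone fell at least 2-fold, which 7.75% of all genes did.

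Scaling by total counts in place of TMM shifted the log2 fold change of all genes by a median of 0.32, because the TMM factors were 0.901 to 0.932 in the controls and 1.11 and 1.17 in the gentamicin kidneys. Under it 31 of 117 tested members were called higher and 4 lower. Of all 22006 tested genes, 6192 (28.1%) were called higher and 1895 lower. All 10 higher calls were kept, but so were all 2931 among all genes. A higher call kept under this scaling, here and below, therefore adds no support. Of the 18 lower calls 4 were kept (EIF4EBP1, EEF1A2, CARS2 and the EEF1A1 model on contig C0033380), against 1894 of 2959 among all genes. No called member changed sign. Every fall below is therefore a fall relative to the bulk of genes. Leaving out 1 library at a time, 5 calls were kept in all 5 cases: IARS1, MARS1 and EIF5B higher, and EIF4EBP1 and the same EEF1A1 model lower. With a gentamicin library left out, the remaining one is assumed to vary as the controls do.

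**Figure D1:**
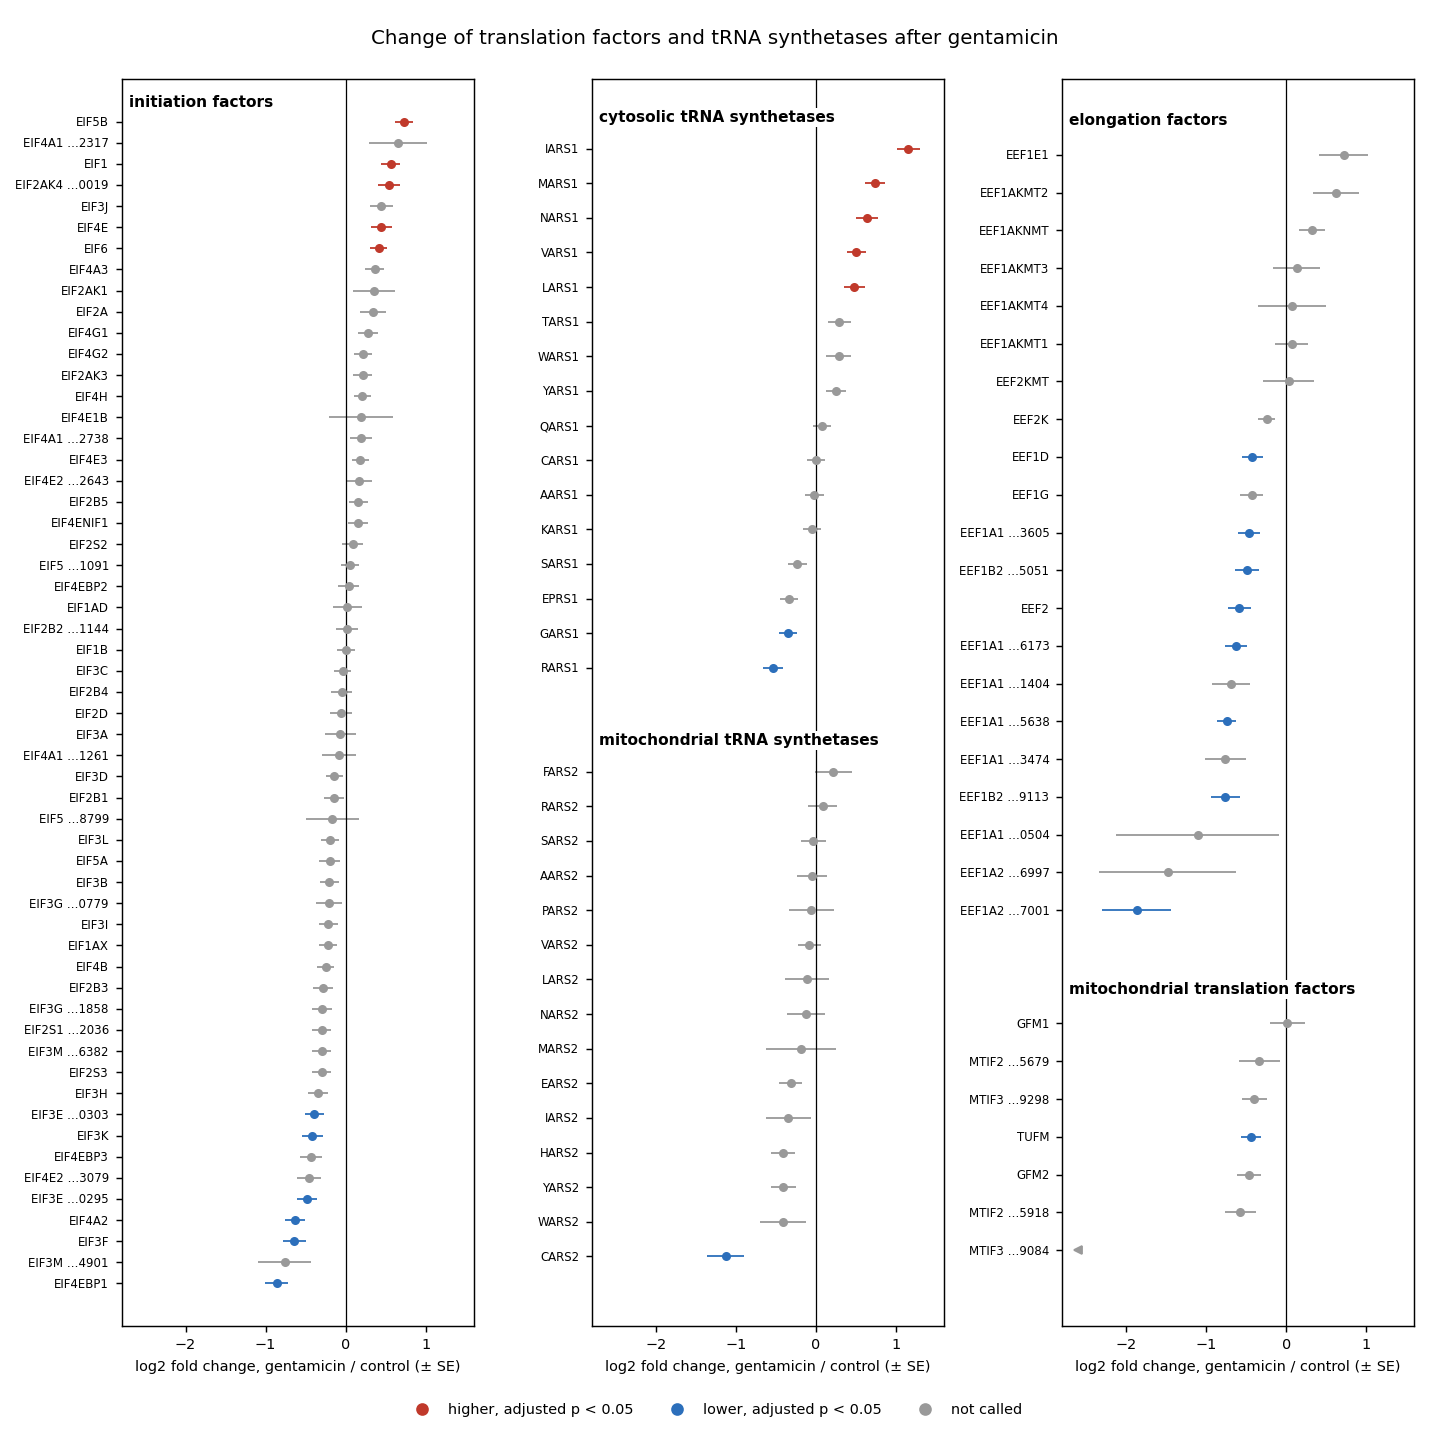
Log2 fold change (gentamicin over control, TMM scaling, x axis) with its standard error for the tested members described singly, sorted within its class, red where called higher, blue where called lower and grey where not called. The synthetase IARS1 lies farthest to the right at 1.15, most core elongation factors lie left of 0, and the MTIF3 model drawn as an arrow lies outside the axis at -4.30 and was not called.

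Of 17 cytosolic synthetases, all tested, 5 were called higher (IARS1, MARS1, NARS1, VARS1 and LARS1), which is 29.4% against 13.3% of all tested genes. A further 2 were called lower (RARS1 and GARS1), 11.8% against 13.4% of all tested genes, and 10 were not called, with a median log2 fold change of 0.08. GARS1 and KARS1 serve both the cytosol and mitochondria and were counted in this class. The summed level of the class was nearly level under TMM scaling, 2131, 2049 and 2048 CPM in controls and 2072 and 2016 CPM after gentamicin, and stood at 1.23 times the control mean under total-count scaling.

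IARS1, which charges isoleucine (AMEX60DD023979, chromosome arm 2q, positions 454496212 to 457080535, plus strand), had the largest rise of any member. It measured 45.3, 32.6 and 39.6 CPM in controls 1, 2 and 3 and 84.4 and 89.9 CPM in gentamicin kidneys 1 and 3. Both treated values lie above all 3 controls, and the means were 39.2 ± 6.39 CPM (SD, n = 3) and 87.1 ± 3.94 CPM (SD, n = 2). The log2 fold change was 1.15 ± 0.15 (SE, adjusted p = 0.000817).

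MARS1, the methionine enzyme that also charges the initiator transfer RNA, measured 33.5, 30.9 and 37.3 CPM in controls and 55.9 and 57.2 CPM after gentamicin. Its groups were apart, and it rose by 0.74 ± 0.12 (SE, log2, adjusted p = 0.00304). NARS1, the asparagine enzyme, measured 37.4, 30.0 and 38.1 CPM and then 53.0 and 56.4 CPM, a log2 fold change of 0.64 ± 0.14 (SE, adjusted p = 0.0106). The NARS1 call was lost without gentamicin kidney 1 (adjusted p = 0.0601) and without gentamicin kidney 3 (adjusted p = 0.0976). VARS1, the valine enzyme, measured 63.2, 68.6 and 68.9 CPM and then 88.6 and 101 CPM, and rose by 0.51 ± 0.11 (SE, log2, adjusted p = 0.0130). Without gentamicin kidney 3 its adjusted p was 0.132. LARS1, the leucine enzyme, was the weakest of the 5 rises at 0.48 ± 0.13 (SE, log2, adjusted p = 0.0288). Its levels were 47.4, 41.3 and 41.9 CPM in controls and 55.0 and 66.1 CPM after gentamicin. The LARS1 call was kept only without control 1: the adjusted p was 0.0792 without control 2, 0.0798 without control 3, 0.0517 without gentamicin kidney 1 and 0.243 without gentamicin kidney 3.

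RARS1, the arginine enzyme, went the other way in all libraries. It measured 159.5, 138 and 133 CPM in controls and 105 and 93.2 CPM after gentamicin, a log2 fold change of -0.54 ± 0.13 (SE, adjusted p = 0.0163). Its call was lost without gentamicin kidney 1 (adjusted p = 0.0631), without gentamicin kidney 3 (adjusted p = 0.146) and with total-count scaling (adjusted p = 0.194). GARS1, the glycine enzyme, measured 219, 216 and 220.4 CPM and then 179 and 164 CPM, a log2 fold change of -0.35 ± 0.11 (SE, adjusted p = 0.0467). The GARS1 call was lost with every library left out in turn (adjusted p = 0.0735 to 0.254). Next in order came EPRS1, the joint glutamate and proline enzyme, at -0.34 (adjusted p = 0.0613), which was not called by edgeR. DESeq2 called EPRS1 lower (adjusted p = 0.0113). A further 8 enzymes had log2 fold changes between -0.23 (SARS1) and 0.29 (TARS1).

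**Figure D2:**
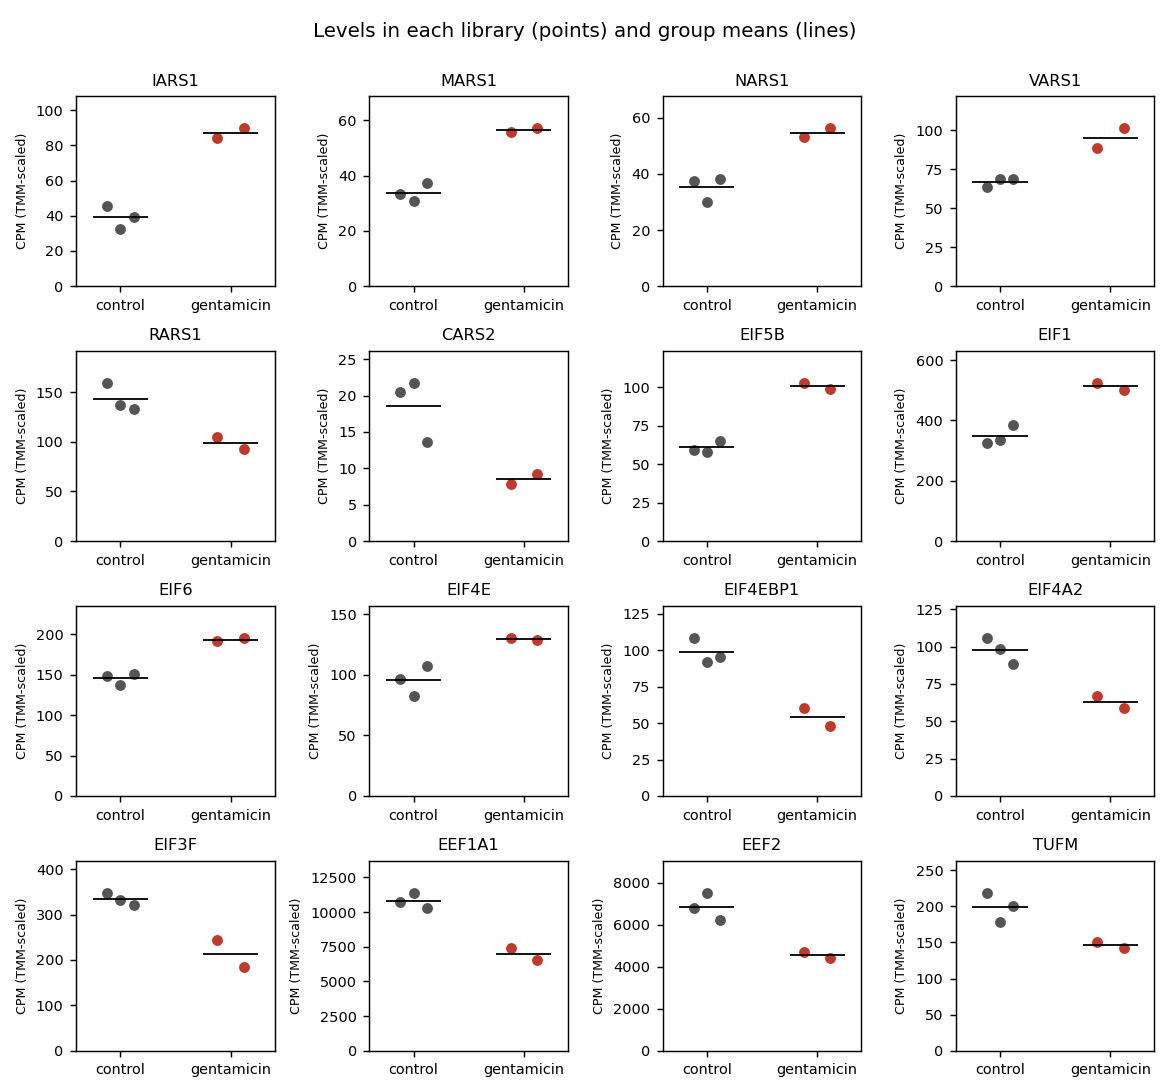
TMM-scaled CPM (y axis, from 0) of 16 members in each of the 3 control and 2 gentamicin libraries, with points for libraries and lines for group means. All 16 are called members, so the lack of overlap between the 2 groups in each panel adds no support. Among all tested genes the groups were apart in 28.6% that were higher and 26.7% that were lower. IARS1 lies at 32.6 to 45.3 CPM in controls and at 84.4 and 89.9 CPM after gentamicin.

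In animals, several cytosolic synthetases sit together in a multisynthetase complex with the scaffold proteins AIMP1, AIMP2 and EEF1E1. A list of these 11 genes, added after their values were seen, gave 12 tested models with a median log2 fold change of 0.09. Of these, 3 were higher (IARS1, MARS1 and LARS1), 25% against 13.3% of all tested genes. A further 1 was lower (RARS1), 8.33% against 13.4% of all tested genes, and 8 were not called. NARS1, VARS1 and GARS1 are not on that list. EEF1E1, the scaffold that the name rule places among the elongation factors, measured 20.0, 13.1 and 28.4 CPM in controls and 36.9 and 30.6 CPM after gentamicin. The groups were apart, but the spread among controls was wide and the log2 fold change of 0.72 ± 0.30 (SE) was not called in the main edgeR fit (adjusted p = 0.140). EEF1E1 was called higher without the filter on low counts (adjusted p = 9.37e-05), with total-count scaling (adjusted p = 0.04) and without control 3 (adjusted p = 0.0181).

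Mitochondrial synthetases were less abundant than their cytosolic counterparts, and some had wide errors (MARS2 0.44, IARS2 0.28 and LARS2 0.27, SE on the log2 scale). Of 16 members 0 were called higher by edgeR (also 0 at an unadjusted p under 0.05, by DESeq2 and by limma-voom), against 13.3% of all tested genes. The 1 called lower was CARS2, a share of 6.25% against 13.4% of all tested genes (4 were lower at an unadjusted p under 0.05). Under TMM scaling 14 of 16 log2 fold changes were below 0 with a median of -0.16, while under total-count scaling 6 were below 0 and the median was 0.17, against 0.33 for all genes. The summed level of the class was 329, 254 and 297 CPM in controls and 242 and 243 CPM after gentamicin.

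CARS2, the mitochondrial cysteine enzyme (AMEX60DD047877, chromosome arm 7p, positions 621631943 to 623008645, minus strand), measured 20.5, 21.7 and 13.6 CPM in controls and 7.85 and 9.15 CPM after gentamicin. Both treated values lie below the lowest control, and the log2 fold change was -1.13 ± 0.23 (SE, adjusted p = 0.00862). The call was lost without gentamicin kidney 1 (adjusted p = 0.0954) and without gentamicin kidney 3 (adjusted p = 0.0594). Low p without a call was also seen for HARS2 (histidine; 30.4, 24.4 and 24.3 CPM, then 20.2 and 19.6 CPM) and YARS2 (tyrosine; 28.3, 23.6 and 31.4 CPM, then 21.5 and 20.3 CPM). Both had groups that did not overlap and a log2 fold change of -0.41 (adjusted p = 0.0817 and 0.0879). YARS2 was called lower without control 2 (adjusted p = 0.0393). A further 12 ranged from -0.42 (WARS2) to 0.22 (FARS2) without a call.

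The cytosolic and the mitochondrial enzyme were compared for 13 amino acids, with EPRS1 standing for both glutamate and proline. Under TMM scaling the log2 fold change of the cytosolic enzyme was above that of its mitochondrial counterpart in 9 pairs and below it in 4. The median difference was 0.59, and it was not computed under other scalings. Total-count scaling moved the medians of both classes upward, from 0.08 to 0.39 for cytosolic and from -0.16 to 0.17 for mitochondrial synthetases. The widest gap was for isoleucine, with IARS1 at 1.15 and IARS2 at -0.35 ± 0.28 (SE, adjusted p = 0.421). Within each library the ratio of IARS1 counts to IARS2 counts was 0.840, 1.12 and 1.04 in controls and 3.18 and 2.44 after gentamicin. Cysteine had the next largest gap, 1.13, and there the cytosolic CARS1 was flat (62.6, 54.7 and 57.0 CPM, then 56.6 and 59.3 CPM) and CARS2 fell. Arginine was the reverse case, with RARS1 at -0.54 and RARS2 at 0.09 ± 0.18 (SE). All 5 cytosolic enzymes that rose had a mitochondrial counterpart below 0 under TMM scaling and not called. No test was made of the differences within pairs.

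**Figure D3:**
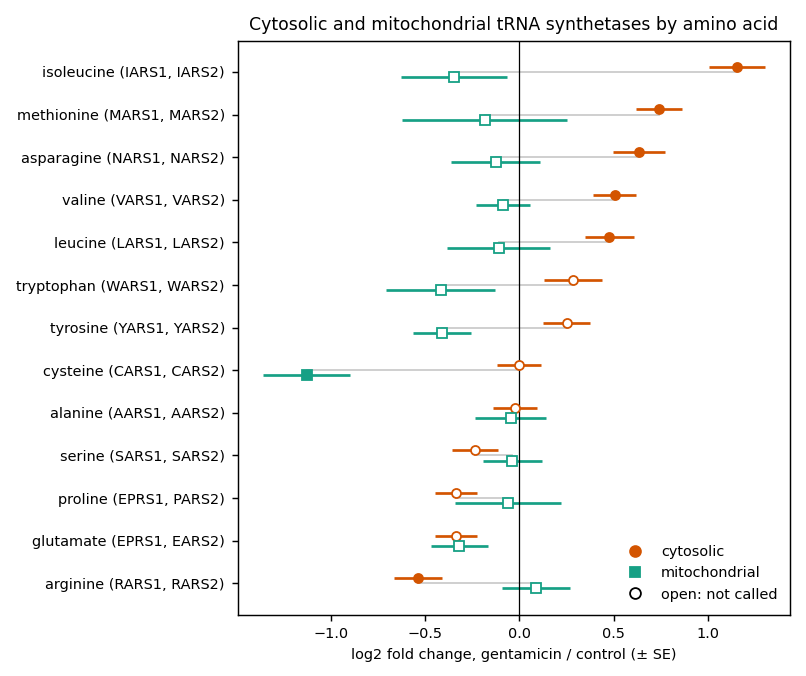
Log2 fold change (x axis, gentamicin over control, TMM scaling, bars are standard errors) of the cytosolic (circles) and mitochondrial (squares) synthetase for each of 13 amino acids, filled where called. The circles spread from -0.54 to 1.15, and all squares but CARS2 at -1.13 lie between -0.42 and 0.09.

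Of 62 initiation factor members 56 were tested, and the shares called, 8.93% higher and 10.7% lower, were below the 13.3% and 13.4% of all tested genes. Those called were 5 higher (EIF5B, EIF1, EIF2AK4, EIF4E and EIF6) and 6 models of 5 symbols lower (EIF4EBP1, EIF4A2, EIF3F, EIF3K and both EIF3E models), and 45 were not called. The median log2 fold change was -0.05 and the summed level was 10837, 10032 and 10641 CPM in controls and 10559 and 9884 CPM after gentamicin.

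Among the factors of start codon selection, EIF1, which keeps the scanning ribosome open until it meets a start codon, was higher. It measured 325, 335 and 386 CPM in controls and 525 and 502 CPM after gentamicin, with a log2 fold change of 0.56 ± 0.12 (SE, adjusted p = 0.0111). The EIF1 call was lost without gentamicin kidney 1 (adjusted p = 0.0721) and without gentamicin kidney 3 (adjusted p = 0.0528). Its relatives were not called: EIF1B stood at 141, 142 and 142 CPM and then 153 and 132 CPM, EIF1AX at 469, 416 and 449 CPM and then 382 and 379 CPM, and EIF1AD at 13.8, 15.9 and 12.9 CPM and then 16.2 and 12.6 CPM. Only for EIF1AX were the groups apart, with a log2 fold change of -0.23 (adjusted p = 0.188).

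The complex eIF2 brings the initiator transfer RNA and eIF2B reloads it with GTP. In the main edgeR fit 0 of their 10 tested models were called (2 at an unadjusted p under 0.05, 1 by DESeq2 and 0 by limma-voom). Of all tested genes 26.8% were called in either direction. By unadjusted p the first were EIF2S3 (273, 259 and 251 CPM, then 224 and 199.9 CPM, adjusted p = 0.0889), EIF2S1 (170.0, 154 and 162 CPM, then 142 and 121 CPM, adjusted p = 0.107), EIF2B3 (33.2, 34.0 and 35.1 CPM, then 29.8 and 26.3 CPM, adjusted p = 0.132) and EIF2A (53.3, 36.2 and 45.2 CPM, then 57.2 and 56.7 CPM, adjusted p = 0.162). EIF2S1 is the subunit that the eIF2 kinases phosphorylate. The groups were apart in each of these 4, which adds no support because they were picked by small p. Over the 10 tested models groups were apart in 1 that was higher and 4 that were lower. Among all tested genes these shares were 28.6% and 26.7%. Under TMM scaling the first 3 stood at -0.30, -0.30 and -0.28 on the log2 scale. EIF2A, which is a separate initiator transfer RNA binding protein, stood at 0.34. DESeq2 called EIF2S3 alone (adjusted p = 0.0318). Under total-count scaling all 10 log2 fold changes were positive, with a median of 0.27 against 0.33 for all genes. There edgeR called 3 of the 10 higher: EIF2A (adjusted p = 0.0135), EIF2B5 (adjusted p = 0.0174) and EIF2S2 (adjusted p = 0.0331). Under that scaling 28.1% of all tested genes were called higher. EIF2A was also called higher without control 1 (adjusted p = 0.0419). The other models, 1 of EIF2S1 and 2 of EIF2B2, had too few counts to be tested.

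Of the eIF2 kinases, 3 models were tested and 1 was called higher (33.3%, against 13.3% of all tested genes). The EIF2AK4 model on chromosome arm 3q (GCN2 in mammals, which senses uncharged transfer RNA) measured 18.5, 20.2 and 17.2 CPM in controls and 28.6 and 25.6 CPM after gentamicin, a log2 fold change of 0.54 ± 0.14 (SE, adjusted p = 0.0218). Its identity is uncertain, since the deposited description of that model names TTC1, and it overlaps PWWP2A on the opposite strand, which holds 1902 counts against its 1715. The call was lost without control 3 (adjusted p = 0.0626), gentamicin kidney 1 (adjusted p = 0.172) and gentamicin kidney 3 (adjusted p = 0.0824). EIF2AK3 (PERK in mammals, a sensor of the endoplasmic reticulum) measured 30.5, 31.9 and 28.3 CPM and then 36.1 and 33.9 CPM, groups that do not overlap, with a log2 fold change of 0.21 (adjusted p = 0.246). The heme-regulated EIF2AK1 measured 7.49, 5.02 and 4.55 CPM and then 7.14 and 7.33 CPM, and its groups overlap (adjusted p = 0.380).

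The factor eIF3, the multisubunit scaffold of the small ribosomal subunit, leaned downward. Of 16 tested models 15 had negative log2 fold changes under TMM scaling, with a median of -0.26. Among all 22006 tested genes 10880 were negative. Of the eIF3 models 4 were called lower (25%, against 13.4% of all tested genes). Under total-count scaling 6 were negative, the median was 0.06 against 0.33 for all genes, and none of the 4 was called. EIF3F measured 348, 333 and 322 CPM in controls and 244 and 184 CPM after gentamicin, a log2 fold change of -0.64 ± 0.14 (SE, adjusted p = 0.0127). Without gentamicin kidney 3, the lower of the treated values, its adjusted p was 0.0933. The main EIF3E model measured 216, 219.5 and 206 CPM and then 177 and 149 CPM (-0.39 ± 0.12, SE, log2, adjusted p = 0.0443). A shorter EIF3E model nearby on the opposite strand of chromosome arm 5q measured 35.1, 38.2 and 34.0 CPM and then 27.1 and 24.1 CPM (-0.48 ± 0.13, SE, log2, adjusted p = 0.0259). EIF3K measured 179.6, 171 and 172 CPM and then 146 and 115 CPM (-0.42 ± 0.13, SE, log2, adjusted p = 0.0493). In all of these both treated kidneys lie below every control. Calls for both EIF3E models and EIF3K were lost without gentamicin kidney 3 (adjusted p = 0.281, 0.199 and 0.319) and without control 2 (adjusted p = 0.0869, 0.0613 and 0.0763). Both EIF3E models also lost theirs without gentamicin kidney 1 (adjusted p = 0.0642 and 0.0845). The main EIF3E model and EIF3K lost it without control 1 (adjusted p = 0.0701 and 0.0787) and without control 3 (adjusted p = 0.0540 and 0.0711).

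One eIF3 member stood on the other side. EIF3J, a loosely attached subunit that acts at the decoding site, measured 147, 113 and 145 CPM in controls and 192 and 176 CPM after gentamicin. Its log2 fold change of 0.45 ± 0.14 (SE) had an adjusted p of 0.0501 and was not called in the main edgeR fit. EIF3J was called higher by DESeq2 (adjusted p = 0.0327) and without the filter on low counts (adjusted p = 0.00549). The same held with total-count scaling (adjusted p = 0.00373) and without control 1 (adjusted p = 0.0387). The large core subunits EIF3A (-0.07) and EIF3C (-0.04) overlapped between groups.

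The cap complex consists of EIF4E, which binds the cap, the scaffold EIF4G and the helicase EIF4A with its helpers EIF4B and EIF4H. EIF4E was called higher and EIF4A2 lower among 14 tested models (7.14% each, against 13.3% and 13.4% of all tested genes). EIF4E measured 96.7, 82.3 and 108 CPM in controls and 131 and 129 CPM after gentamicin (0.44 ± 0.13, SE, log2, adjusted p = 0.0404). This call was kept only without control 3: the adjusted p was 0.0609 without control 1, 0.0867 without control 2, 0.179 without gentamicin kidney 1 and 0.171 without gentamicin kidney 3. EIF4A2 measured 106, 98.2 and 88.5 CPM and then 66.9 and 58.8 CPM (-0.63 ± 0.13, SE, log2, adjusted p = 0.00759), and lost its call without gentamicin kidney 3 (adjusted p = 0.0915). The main model of its close relative EIF4A1 measured 1092, 1021 and 1259 CPM and then 1319 and 1247 CPM, with overlapping groups (0.19 ± 0.13, SE, log2, adjusted p = 0.340). Its 2 lesser models stood at -0.08 and 0.65 on the log2 scale, neither called in the main edgeR fit, and the second of these overlaps AP3B1 on the same strand. That second model was called higher without the filter on low counts (adjusted p = 0.0321) and with the replicate block (adjusted p = 0.0323). Within a library the ratio of EIF4A1 counts to EIF4A2 counts was 10.3, 10.4 and 14.2 in controls and 19.7 and 21.2 after gentamicin, so the helicase pair shifted toward EIF4A1 in both treated kidneys. This ratio was chosen after its values were seen, and reads of such similar genes may be shared between them.

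The scaffolds were not called. EIF4G1 measured 326, 283 and 269 CPM and then 335 and 373 CPM (0.28, log2, adjusted p = 0.154), and EIF4G2, a relative that does not bind EIF4E, measured 585, 578 and 613 CPM and then 682 and 696 CPM (0.22, log2, adjusted p = 0.187). Both lay above all controls in both treated kidneys. EIF4G3 had too few counts to be tested (0.0723 to 0.407 CPM in controls, 0.654 and 0.208 CPM after gentamicin). EIF4A3, the helicase of the exon junction complex, measured 50.6, 54.5 and 60.3 CPM and then 74.8 and 66.7 CPM (0.36, log2, adjusted p = 0.0650). A lesser model of the cap-binding relative EIF4E2 measured 22.4, 20.4 and 22.8 CPM and then 17.4 and 14.4 CPM (-0.46, log2, adjusted p = 0.0554). DESeq2 called this lesser model lower (adjusted p = 0.0486). The main EIF4E2 model had overlapping groups (0.16, log2, adjusted p = 0.498).

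EIF4EBP1, the inhibitor of EIF4E (AMEX60DD002562, chromosome arm 10q, positions 203593611 to 203834948, minus strand), had the smallest p of the lower calls after the EEF1A1 model on contig C0033380. It measured 109, 91.9 and 95.1 CPM in controls and 60.6 and 48.1 CPM after gentamicin. The means were 98.6 ± 8.90 CPM (SD, n = 3) and 54.3 ± 8.84 CPM (SD, n = 2), and the log2 fold change was -0.86 ± 0.14 (SE, adjusted p = 0.00313). EIF4EBP3 measured 32.6, 28.9 and 26.7 CPM and then 20.7 and 22.7 CPM, apart but not called in the main edgeR fit (-0.44 ± 0.14, SE, log2, adjusted p = 0.0528). It was called lower by DESeq2 (adjusted p = 0.0461), with a filter at a mean CPM of 1 (adjusted p = 0.0494) and without control 3 (adjusted p = 0.0397). EIF4EBP2 measured 50.0, 40.4 and 47.7 CPM and then 49.4 and 44.9 CPM, with overlapping groups (adjusted p = 0.878), as did the EIF4E transporter EIF4ENIF1 (37.8, 37.3 and 42.4 CPM, then 40.8 and 46.1 CPM, adjusted p = 0.427). Within a library the ratio of EIF4EBP1 counts to EIF4E counts was 1.12, 1.12 and 0.884 in controls and 0.463 and 0.372 after gentamicin. The 2 genes were therefore counted about equally in controls, and EIF4E was counted more than its inhibitor in both treated kidneys; this ratio too was chosen after its values were seen, and counts are not corrected for gene length.

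Late initiation and subunit factors held the other rises. EIF5B, the GTPase that joins the ribosomal subunits (AMEX60DD047827, chromosome arm 7p, positions 598540000 to 599783543, plus strand), measured 59.5, 58.2 and 65.2 CPM in controls and 103 and 99.0 CPM after gentamicin. Its log2 fold change was 0.73 ± 0.11 (SE, adjusted p = 0.00182). EIF6, which binds the large subunit and takes part in its assembly, measured 149, 137 and 152 CPM and then 191 and 196 CPM (0.41 ± 0.11, SE, log2, adjusted p = 0.0238). The EIF6 call was lost without control 2 (adjusted p = 0.0684), gentamicin kidney 1 (adjusted p = 0.103) and gentamicin kidney 3 (adjusted p = 0.132). EIF5, the partner that makes eIF2 hydrolyse GTP, measured 458, 428 and 423 CPM and then 439.7 and 464 CPM in its main model, with overlapping groups. EIF5A, the hypusine-bearing factor that relieves stalled ribosomes, measured 1998, 1649 and 1862 CPM and then 1682 and 1509.8 CPM (-0.20, log2, adjusted p = 0.322), and its groups overlap as well.

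The elongation factors that fell were core factors. Of 21 tested models of the class 8 were called lower by edgeR (38.1%, against 13.4% of all tested genes) and 0 higher (also 0 at an unadjusted p under 0.05, by DESeq2 and by limma-voom), and all 8 were among the 14 models of the core machinery, where 13 of 14 log2 fold changes were negative under TMM and under total-count scaling alike. The 1 positive core model was EEF1E1 (0.72 under TMM scaling), the multisynthetase scaffold that the name rule places in this class. With EEF1E1 included, the core median was -0.66 under TMM scaling. The summed level of the class was 23162, 24804 and 22193 CPM in controls and 16756 and 14715 CPM after gentamicin, which is 0.673 of the control mean under TMM scaling and 0.839 under total-count scaling. The 7 models of kinases and methyltransferases had 6 positive log2 fold changes and no call, against 26.8% of all tested genes called in either direction. Counting the most abundant model of each symbol, 5 of 14 were called lower, 7 log2 fold changes were positive and 7 negative, and the median was -0.11; EEF1A1 alone accounts for 6 of the 21 models. Under total-count scaling 2 models were called lower and 3 higher (EEF1E1, EEF1AKMT2 and EEF1AKNMT). Among all 22006 tested genes, that scaling gave 1895 lower and 6192 (28.1%) higher.

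EEF1A1, which delivers charged transfer RNAs to the ribosome, has 7 models in the table, and 95.7% of its counts fell on 1 of them (AMEX60DD006173, chromosome arm 11q, positions 1069649971 to 1069818282, plus strand). That model measured 10702, 11409 and 10267 CPM in controls and 7396 and 6544 CPM after gentamicin, a log2 fold change of -0.63 ± 0.14 (SE, adjusted p = 0.0120). Both treated values lie below every control, and the call was lost without gentamicin kidney 3 (adjusted p = 0.0591) and with total-count scaling (adjusted p = 0.0637). The model on contig C0033380 measured 206, 203 and 195 CPM and then 131 and 109.7 CPM (-0.74 ± 0.12, SE, log2, adjusted p = 0.00275). The called model on chromosome arm 4p measured 239, 248 and 192 CPM and then 165 and 164 CPM (-0.46 ± 0.14, SE, log2, adjusted p = 0.0402). This last call was lost without control 1 (adjusted p = 0.0742), control 2 (adjusted p = 0.0962), gentamicin kidney 1 (adjusted p = 0.178) and gentamicin kidney 3 (adjusted p = 0.189). All 6 tested EEF1A1 models had negative log2 fold changes under each of the scalings tried. Their median was -0.72 under TMM scaling, where they ranged from -0.46 to -1.11, and -0.40 under total-count scaling. Models of near-identical sequence can share reads, so values of the lesser models are uncertain and the 6 are not independent.

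EEF1A2, a form found mostly in muscle and neurons of mammals, was barely counted. Its main model measured 2.03, 2.98 and 2.02 CPM in controls and 0.595 and 0.676 CPM after gentamicin (-1.87 ± 0.43, SE, log2, adjusted p = 0.0145). The call was lost without gentamicin kidney 1 (adjusted p = 0.108) and without gentamicin kidney 3 (adjusted p = 0.0935). The second model measured 1.30, 1.31 and 1.30 CPM and then 0.892 and 0.0520 CPM and was not called (adjusted p = 0.251).

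The exchange complex that reloads EEF1A with GTP consists of EEF1B2, EEF1D and EEF1G. The main EEF1B2 model measured 1360.4, 1544 and 1463 CPM in controls and 1168 and 904 CPM after gentamicin (-0.49 ± 0.15, SE, log2, adjusted p = 0.0422). A lesser EEF1B2 model measured 86.7, 86.7 and 61.8 CPM and then 51.0 and 41.3 CPM (-0.76 ± 0.18, SE, log2, adjusted p = 0.0169). EEF1D measured 532, 553 and 509.6 CPM and then 434 and 358 CPM (-0.42 ± 0.13, SE, log2, adjusted p = 0.0422). EEF1G, which the table names together with AHNAK2L, measured 3055, 3019.7 and 3080.4 CPM and then 2547 and 1982 CPM and was not called by edgeR (-0.43 ± 0.15, SE, log2, adjusted p = 0.0621). EEF1G was called lower by DESeq2 (adjusted p = 0.00914), by limma-voom (adjusted p = 0.0393), without the filter on low counts (adjusted p = 0.0190) and without gentamicin kidney 1 (adjusted p = 0.0303). In all 4 the treated kidneys lie below the controls and gentamicin kidney 3 is the lower. Without gentamicin kidney 3 the adjusted p was 0.231 for the main EEF1B2 model, 0.161 for the lesser one and 0.246 for EEF1D. The main EEF1B2 model also lost its call without control 2 (adjusted p = 0.0970) and control 3 (adjusted p = 0.0679), the lesser one without gentamicin kidney 1 (adjusted p = 0.0573), and EEF1D without control 1 (adjusted p = 0.0686), control 2 (adjusted p = 0.0922) and control 3 (adjusted p = 0.0512).

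EEF2, which moves the ribosome by 1 codon after each peptide bond (AMEX60DD014307, chromosome arm 1p, positions 477714766 to 477730567, plus strand), measured 6784, 7526 and 6219.6 CPM in controls and 4676 and 4429.5 CPM after gentamicin. Both treated values lie below every control, with a log2 fold change of -0.59 ± 0.14 (SE, adjusted p = 0.0172). The call was lost without control 2 (adjusted p = 0.0531), gentamicin kidney 1 (adjusted p = 0.0545) and gentamicin kidney 3 (adjusted p = 0.0835), and with total-count scaling (adjusted p = 0.121). EEF2K, the kinase that inactivates EEF2, measured 74.4, 81.8 and 79.0 CPM and then 64.1 and 68.0 CPM, apart but not called (-0.25 ± 0.11, SE, log2, adjusted p = 0.139). The 6 methyltransferases that modify EEF1A or EEF2 had log2 fold changes from 0.03 to 0.62. None was called in the main edgeR fit, by DESeq2, by limma-voom or at an unadjusted p under 0.05. With total-count scaling edgeR called EEF1AKMT2 (adjusted p = 0.0301) and EEF1AKNMT (adjusted p = 0.0201) higher. Under that scaling 28.1% of all tested genes were called higher. In the main fit the smallest p of the 6 was that of EEF1AKMT2 (3.09, 2.84 and 2.38 CPM, then 4.88 and 3.64 CPM, adjusted p = 0.152), which overlaps FAM53B on the opposite strand. EEF1AKNMT followed (13.5, 11.9 and 15.1 CPM, then 16.2 and 17.6 CPM, adjusted p = 0.188). EEF1AKMT3 measured 11.3, 5.74 and 7.15 CPM and then 8.86 and 8.74 CPM, with overlapping groups.

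The mitochondrial factors were mostly below 0, and 1 of 7 tested models was called lower (14.3%, against 13.4% of all tested genes). TUFM, the mitochondrial counterpart of EEF1A, measured 219, 178 and 201 CPM in controls and 150.2 and 143 CPM after gentamicin (-0.44 ± 0.13, SE, log2, adjusted p = 0.0326). This call was kept only without control 2: the adjusted p was 0.0623 without control 1, 0.0571 without control 3, 0.129 without gentamicin kidney 1, 0.188 without gentamicin kidney 3 and 0.466 with total-count scaling. GFM1, which drives translocation, measured 58.6, 36.1 and 53.6 CPM and then 44.1 and 55.5 CPM, with overlapping groups (0.01, log2, adjusted p = 0.974). GFM2, which recycles the mitochondrial ribosome, measured 15.9, 17.4 and 18.7 CPM and then 12.4 and 12.7 CPM, apart but not called in the main edgeR fit (-0.46 ± 0.15, SE, log2, adjusted p = 0.0564). It was called lower by DESeq2 (adjusted p = 0.0488), with log2(FPKM + 0.1) in limma (adjusted p = 0.0491) and without control 1 (adjusted p = 0.0454). It overlaps NSA2 on the opposite strand, a gene with 13770 counts against its 1146.

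Among the mitochondrial initiation factors, the main MTIF2 model measured 11.6, 12.9 and 10.5 CPM and then 8.63 and 7.13 CPM (-0.57 ± 0.19, SE, log2, adjusted p = 0.0618). The main MTIF3 model measured 25.2, 34.1 and 31.2 CPM and then 22.1 and 23.7 CPM (-0.40 ± 0.16, SE, log2, adjusted p = 0.10) and overlaps RPL21, a gene with 47599 counts, on the opposite strand. Both had groups that were apart, and edgeR called neither. With 1 row per symbol both were called (adjusted p = 0.0471 for MTIF2 and 0.00899 for MTIF3), as were MTIF2 with log2(FPKM + 0.1) in limma (adjusted p = 0.0490) and MTIF3 without control 1 (adjusted p = 0.030). A lesser MTIF2 model stood at -0.33 on the log2 scale (adjusted p = 0.397). A second MTIF3 model of under 1 kilobase on chromosome arm 3q was uneven among the controls, at 8.22, 0.291 and 5.06 CPM, and measured 0.178 and 0.260 CPM after gentamicin. Its log2 fold change of -4.30 ± 1.52 (SE) was not called by edgeR (adjusted p = 0.108), but it was called by DESeq2 (adjusted p = 0.000558) and without control 2 (adjusted p = 0.000629). The summed level of the class was 342, 282 and 324 CPM in controls and 241 and 245 CPM after gentamicin, 0.768 of the control mean under TMM scaling and 0.959 under total-count scaling.

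**Figure D4:**
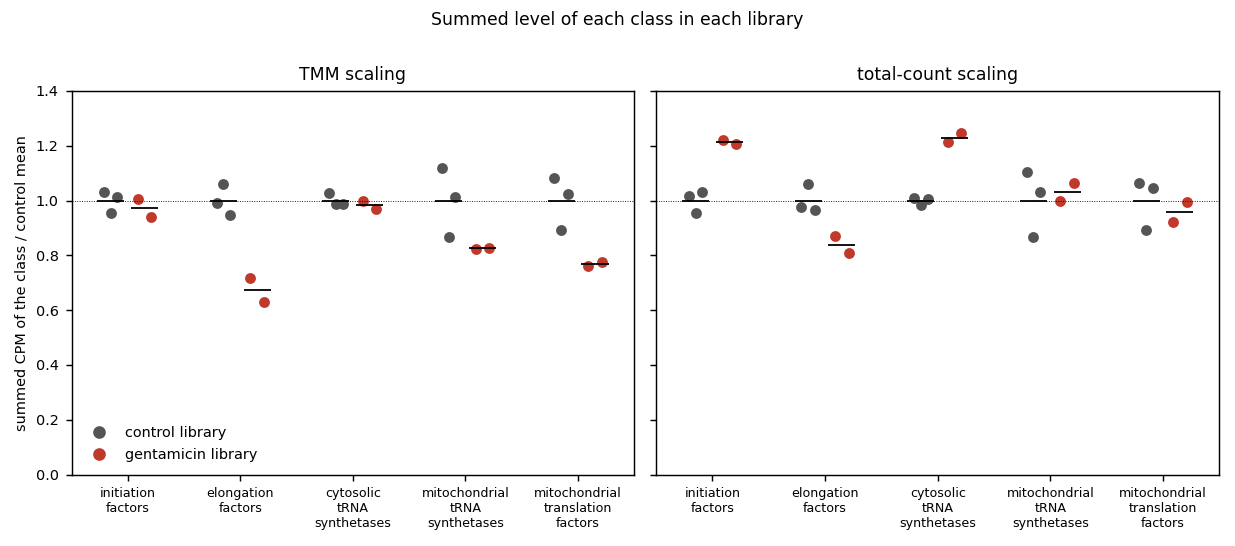
Summed CPM of each class in each library divided by its control mean (y axis, from 0), under TMM scaling (left) and total-count scaling (right), with points for libraries and lines for group means. Elongation factors lie below the controls in both panels (0.673 and 0.839), while initiation factors and cytosolic synthetases are level on the left and higher on the right (1.21 and 1.23).

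Levels could be compared between genes with the deposited FPKM values, which are per kilobase of gene model. In controls, elongation factors held the top of the group: EEF1A1 at 2784 FPKM, EEF2 at 1829 FPKM and EEF1G at 864 FPKM. The most abundant initiation factor was EIF3F at 225 FPKM. Cytosolic synthetases ranged from 7.20 FPKM (CARS1) to 140.1 FPKM (KARS1, which serves both compartments). Mitochondrial ones ranged from 1.56 FPKM (MARS2) to 7.72 FPKM (LARS2) with a median of 3.96 FPKM. In all 13 amino acid pairs the cytosolic enzyme had the higher control level, by a median of 6.04 times. The 5 cytosolic synthetases that rose had control levels of 8.92 to 21.1 FPKM, and the 2 that fell had 29.3 FPKM (RARS1) and 80.8 FPKM (GARS1). The 10 without a call spanned 7.20 to 140.1 FPKM, and control values enter both the level and the change.

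**Figure D5:**
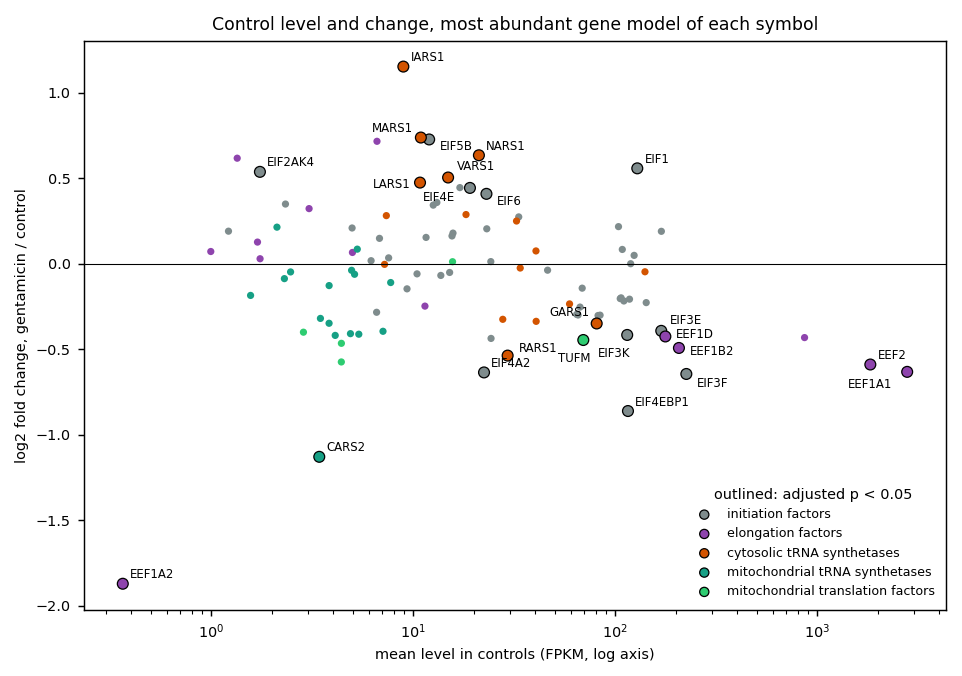
Mean control level (FPKM, log x axis) against log2 fold change (gentamicin over control, TMM scaling, y axis) for the most abundant gene model of each symbol, coloured by class and outlined and named where called. EEF1A1 and EEF2 lie at the far right below 0, while the synthetases called higher lie between 8.92 and 21.1 FPKM above 0.

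Ratios of counts within a library do not depend on scaling; the pairs were chosen after their values were seen and were not tested. IARS1 counts per RARS1 count were 0.284, 0.237 and 0.297 in controls and 0.806 and 0.965 after gentamicin. EIF5B counts per EIF3F count were 0.171, 0.175 and 0.203 in controls and 0.421 and 0.538 after gentamicin. Elongation factor counts per initiation factor count were 2.14, 2.47 and 2.09 in controls and 1.59 and 1.49 after gentamicin. In each of these the treated kidneys lie outside the control range. Cytosolic per mitochondrial synthetase counts were 6.48, 8.05 and 6.89 in controls and 8.58 and 8.29 after gentamicin, also apart but by a small margin.

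Genes of the same pathway outside the name rule were counted from 8 lists. Of 5 tested eIF2 phosphatase subunits and effectors of eIF2 phosphorylation, 3 were higher (60%, against 13.3% of all tested genes). A further 1 was lower (20%, against 13.4%). The median log2 fold change was 0.71. DDIT3, a transcription factor induced by the stress of unfolded proteins, measured 10.4, 10.8 and 13.4 CPM in controls and 71.4 and 101 CPM after gentamicin (2.90 ± 0.18, SE, log2, adjusted p = 2e-05). ATF4, which activates amino acid and synthetase genes in mammals, measured 210.0, 207 and 195 CPM and then 306 and 249 CPM (0.44 ± 0.12, SE, log2, adjusted p = 0.0320), and its call was kept only without gentamicin kidney 3 (adjusted p without each of the others 0.0512 to 0.233). PPP1R15B, a subunit of the eIF2 phosphatase, rose by 0.71 on the log2 scale (adjusted p = 0.00993) and lost its call without gentamicin kidney 1 (adjusted p = 0.0709) and 3 (adjusted p = 0.0796). ASNS, asparagine synthetase, measured 23.9, 29.1 and 27.5 CPM and then 15.9 and 17.8 CPM (-0.67 ± 0.15, SE, log2, adjusted p = 0.0111). The ASNS call was lost without gentamicin kidney 1 (adjusted p = 0.112) and 3 (adjusted p = 0.0608). ASNS is known in mammals as a target of ATF4, and here the transcripts of the 2 went in opposite directions. DDIT3 and TRIB3, on the same list, went the same way as ATF4 (2.90 and 0.88, log2, TRIB3 not called). ATF4 activity was not measured, and its targets were not compared as a set. TRIB3, also on this list, measured 2.20, 4.80 and 3.97 CPM in controls and 6.07 and 7.44 CPM after gentamicin. It was not called in the main edgeR fit (0.88 ± 0.33, SE, log2, adjusted p = 0.0889). With total-count scaling ASNS was not called (-0.35, log2, adjusted p = 0.123), while ATF4 was (0.76, log2, adjusted p = 0.00138). DDIT3 kept its call with each library left out and with total-count scaling.

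Of 10 growth signalling genes, 1 was higher (10%, against 13.3% of all tested genes) and 3 were lower (30%, against 13.4%), with a median of -0.09. RPS6KB1, the S6 kinase downstream of MTOR, measured 56.3, 45.7 and 48.6 CPM in controls and 74.8 and 90.2 CPM after gentamicin (0.72 ± 0.14, SE, log2, adjusted p = 0.00627). The lower ones are restraints on MTOR signalling: SESN2 (60.1, 73.2 and 84.0 CPM, then 29.5 and 29.8 CPM, adjusted p = 0.000648), SESN1 (65.9, 93.4 and 58.6 CPM, then 40.6 and 44.5 CPM, adjusted p = 0.0276) and TSC2 (23.0, 23.3 and 19.9 CPM, then 14.9 and 16.1 CPM, adjusted p = 0.0348). The SESN2 call was kept with each library left out, and that of RPS6KB1 was lost without gentamicin kidney 3 (adjusted p = 0.0800). SESN1 lost its call without gentamicin kidney 1 (adjusted p = 0.194) and 3 (adjusted p = 0.139), and TSC2 without control 1, control 2 and either gentamicin kidney (adjusted p = 0.0665, 0.0881, 0.209 and 0.136). With total-count scaling SESN1 (adjusted p = 0.122) and TSC2 (adjusted p = 0.379) lost their calls. SESN2 (adjusted p = 0.00294) and RPS6KB1 (adjusted p = 0.000999) kept theirs under it. MTOR itself overlapped between groups (0.01, log2, adjusted p = 0.960).

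Among 8 tested models of termination and recycling, the release factors ETF1 (204, 152 and 197 CPM, then 291 and 293 CPM, adjusted p = 0.0111) and GSPT1 (128, 100.5 and 119 CPM, then 162 and 154 CPM, adjusted p = 0.0360) were higher. ABCE1, which splits ribosomes after termination, was lower (402, 406 and 378 CPM, then 284 and 221 CPM, adjusted p = 0.0102). Of that list 25% were higher and 12.5% lower, against 13.3% and 13.4% of all tested genes, and its median was 0.23. ETF1 lost its call without gentamicin kidney 1 (adjusted p = 0.0697) and 3 (adjusted p = 0.0778), ABCE1 without gentamicin kidney 3 (adjusted p = 0.0802), and GSPT1 without control 2, control 3 and either gentamicin kidney (adjusted p = 0.0720 to 0.189). Of 6 tested messenger-binding cofactor models, 0 were higher by edgeR, against 13.3% of all tested genes (also 0 at an unadjusted p under 0.05, by DESeq2 and by limma-voom). The median was -0.30, and 3 models were lower (PABPC4, 1 PABPC1 model and 1 PDCD4 model), 50% against 13.4% of all tested genes. These calls were lost without either gentamicin kidney (adjusted p = 0.0638 to 0.222), without control 2 for PABPC1 and PDCD4 (adjusted p = 0.0649 and 0.0617), and without control 1 or 3 for PABPC1 (adjusted p = 0.0583 and 0.0548). The main PABPC1 model was not called (-0.17, log2, adjusted p = 0.406). With total-count scaling ABCE1 (adjusted p = 0.0678), PABPC4 (adjusted p = 0.322), the lower PABPC1 model (adjusted p = 0.711) and the lower PDCD4 model (adjusted p = 0.274) lost their calls. ETF1 (adjusted p = 0.0013) and GSPT1 (adjusted p = 0.00246) kept theirs under it.

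The remaining 4 lists were quiet. Of 7 enzymes that make hypusine or diphthamide, 1 was higher (DPH3, 0.46, log2, adjusted p = 0.0243; 0.0534 to 0.169 without control 2, control 3 or either gentamicin kidney), and the median was 0.13. Of 7 synthetase partner models 1 was lower (the TARS3 model with the most counts, -0.57, log2, adjusted p = 0.0134; 0.108 and 0.0899 without gentamicin kidney 1 or 3), and the median was 0.00. Of 10 mitochondrial partner models, such as TSFM and QRSL1, 0 were called by edgeR (2 at an unadjusted p under 0.05, 0 by DESeq2 and limma-voom), and the median was -0.25. Neither gene of selenocysteine insertion, EEFSEC or SECISBP2, was called by edgeR, DESeq2 or limma-voom. With total-count scaling the TARS3 call was lost (adjusted p = 0.191) and the DPH3 call was kept (adjusted p = 0.00218). The DPH3 call was 14.3% of its list and the TARS3 call 14.3% of its own. For comparison, 13.3% of all tested genes were called higher, 13.4% lower and 26.8% in either direction.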

How the data were processed

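Total RNA of 5 whole kidneys, 3 from control and 2 from gentamicin animals, was sequenced, and each library is 1 axolotl per the series' design text. The authors deposited 2 gene tables with their names exchanged: the table named for FPKM holds whole-number raw counts (100% of values, 13674201 to 16404879 per library), and the table named for counts holds FPKM. The deposited FPKM equal count per kilobase of gene model and library total times a factor per library whose origin is not stated. The factor was 1.0943, 1.0735 and 1.0453 in controls and 0.8835 and 0.8387 after gentamicin. It is nearly proportional to the inverse of the TMM factors (0.901, 0.913 and 0.932, then 1.11 and 1.17). The deposited FPKM thus carry a scaling close to TMM, and the alternatives on FPKM cannot check the choice of scaling. Per the submitters' processing notes, CASAVA 2.19, fastp, HISAT2 2.0.5, featureCounts 1.5.0-p3 and DESeq2 1.20.0 were used. Neither the assembly nor how strand was handled in counting is stated in labels or headers, so coordinates are those of the deposited tables (1-based), and reads of genes that overlap on opposite strands cannot be told apart (19 members overlap another model).

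Counts were tested with edgeR 4.0.16 (R 4.3.3): filterByExpr by group (minimum count 10, minimum total 15), TMM scaling, robust glmQLFit and glmQLFTest, two-sided, Benjamini-Hochberg over the 22006 genes kept, with calls at an adjusted p under 0.05. The fit had group as its only term and was run on simulated counts with known changes. Those counts had balanced rises and falls, so the run cannot check the choice of scaling. A member said to be not called was not called in this fit, and some such members were called under an alternative. SD is given over animals. FPKM served for levels and, as log2(FPKM + 1) in limma 3.58.1, as an alternative; a pseudocount understates changes of low genes. Further alternatives were DESeq2 1.42.0, limma-voom, other scalings and filters, a replicate block, 1 row per symbol, removal of the 5 genes above 1% of counts, and each library left out. Values in every library are given for up to 4 members of each class or subgroup by smallest p and for a further list of regulators and core factors; EIF5A2, on that list, is not among the members. A further 2 members, counted in the class totals, are not reported singly here and are left out of the amino acid pairs. For symbols with several models the one with the highest mean CPM is called the main model. Members, the 8 pathway lists, the 9 marker lists and the rule for named genes were chosen with earlier results of these data known, and the multisynthetase list and the count ratios after the values were seen.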

Additional observations from a re-analysis of the deposited data

How the results depend on the processing

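No member called in the main comparison changed direction under any alternative. With scaling by total counts, 6192 genes were called higher and 1895 lower (2931 and 2959 with TMM), with 9 and 0 cytosolic synthetases, 3 and 2 elongation factors, 19 and 1 initiation factors higher and lower, and 0 mitochondrial factors lower. Ratios of summed class levels went from 0.984 to 1.23 for cytosolic synthetases, 0.673 to 0.839 for elongation factors, 0.973 to 1.21 for initiation factors, 0.826 to 1.03 for mitochondrial synthetases and 0.768 to 0.959 for mitochondrial factors. The share of higher among all calls went from 49.8% to 76.6%. Upper-quartile scaling left 1 cytosolic synthetase lower. DESeq2 called 11 members higher and 28 lower against 10 and 18, with 11 initiation factors and 3 mitochondrial factors lower. Without the filter on low counts, 1 cytosolic synthetase was lower, 1 elongation factor higher and 8 initiation factors higher. With a 2-fold minimum 1636 genes were higher and 1705 lower, with 1 and 0 cytosolic synthetases, 1 elongation factor lower, 0 and 0 initiation factors, and 0 mitochondrial factors. With log2(FPKM + 1) 5 elongation factors were lower and 3 initiation factors higher; with log2(FPKM + 0.1) these were 5 and 3, and 3 mitochondrial factors were lower. With log2(FPKM + 1) and no filter 1914 genes were lower, with 0 cytosolic synthetases, 1 elongation factor, 3 initiation factors, 0 mitochondrial synthetases and 0 mitochondrial factors lower, and 3 initiation factors higher. With 1 row per symbol 5 elongation factors and 3 mitochondrial factors were lower. The cause of these moves was not tested.

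With 1 library left out in turn, 1333 to 2770 genes were called higher and 1627 to 2963 lower. Cytosolic synthetases ranged from 2 to 5 higher and 0 to 1 lower, elongation factors from 0 to 1 higher and 1 to 7 lower, initiation factors from 1 to 6 higher and 1 to 5 lower, mitochondrial synthetases from 0 to 2 lower and mitochondrial factors from 0 to 2 lower. Without gentamicin kidney 3, 3 members were higher and 2 lower. Without gentamicin kidney 1, 4 were higher and 11 lower. Without control 2, 5 elongation factors were lower, 3 initiation factors higher and 3 lower, and 2 mitochondrial synthetases lower. Each library left out moved at least 1 class count by over 1.5 times.

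Labels 1 and 3 occur in both groups, but no label pairs the animals. Deviations of same-numbered libraries from their group means correlated at -0.036 and 0.062. Control 2, which has no same-numbered partner, correlated at 0.098 with gentamicin kidney 1. With 2 gentamicin libraries their deviations mirror each other, so these values cannot decide whether animals were paired. A fit with the replicate number as a block called 7 members higher and 9 lower: 4 cytosolic synthetases higher and 1 lower, 2 elongation factors lower, 3 initiation factors higher and 3 lower, 1 mitochondrial synthetase lower and 2 mitochondrial factors lower. Depth limits the members of few counts, such as EEF1A2, and the second MTIF3 model had uneven controls.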
